A study of Amolops torrentis with 15 samples.

Results

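The transcripts described here are those encoded by the mitochondrial genome of the torrent frog Amolops torrentis, measured in whole brains of females. They were chosen as the assembled features whose gene symbol in the deposited Swiss-Prot match begins with mt-, in upper or lower case. 8 features of 44351 in the table met that rule. All 8 passed the filter on low values, which kept features whose FPKM averaged 1 or more. FPKM is a count of fragments scaled for the length of the feature and the total of the library.

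RNA sequencing covered 15 libraries, 3 for each of 5 stimulus labels. The audiovisual, acoustic and visual groups are called the stimulus groups below, and the other groups are the blank contrast and the dark contrast. All are whole brain samples, and no genotype, age or drug treatment is given for any group. What the contrast animals received is not given in the labels, nor is the number of animals behind a sample, so a library may stand for 1 brain or for several. The p-values below thus rest on the spread among the deposited samples alone, some of which may be technical. Libraries are named below by group and by the number in their label.

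The animal mitochondrial genome is a small circular DNA that encodes subunits of the respiratory chain, together with the ribosomal and transfer RNAs needed to translate them. The encoded proteins sit in the inner membrane in complexes I, III and IV, which pass electrons to oxygen and pump protons, and in complex V, which uses the proton gradient to make ATP. Most subunits of the same complexes are encoded in the nucleus. The genome is transcribed into long precursors that are cut into separate RNAs, and neurons depend on this system for most of their ATP. In bulk tissue, a different number of mitochondria-rich cells and a different amount of RNA per cell cannot be told apart.

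The 8 features covered 4 of the respiratory complexes. Complex I, NADH dehydrogenase, was represented by MT-ND1 (Cluster-46846.155970, 2657 bases), MT-ND3 (Cluster-46846.155887, 383 bases), MT-ND4 (Cluster-46846.155898, 1747 bases) and MT-ND5 (Cluster-46846.155891, 2290 bases). Complex III was represented by mt-cyb (Cluster-46846.155622, 1283 bases), which encodes cytochrome b, its central electron carrier. Complex IV, cytochrome c oxidase, was represented by mt-co1 (Cluster-46846.156087, 1629 bases), whose product holds the site of oxygen reduction, and by mt-co2 (Cluster-46846.155650, 801 bases), whose product takes electrons from cytochrome c. Complex V was represented by mt-atp6 (Cluster-46846.155931, 739 bases), which encodes subunit a of its proton channel. Positions in a genome are not given in the table, and the symbols come from matches to other species, among them fishes, chicken and other frogs.

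Some features held more than the gene that names them. The MT-ND1 feature also matched the C-terminal domain of NADH dehydrogenase subunit 2, the MT-ND4 feature matched subunit 4L, and the MT-ND5 feature matched subunit 6. The closest nucleotide entry of the mt-atp6 feature spans the ATP8 and ATP6 genes. Domain matches also included a Tc3 transposase in the MT-ND5 feature and a Sigma-70 region 2 in the mt-cyb feature, whose origin was not tested. A value given for any of these features can thus include reads of a neighbouring gene or of other sequence. 4 further features did not meet the rule but had a mitochondrial entry as their closest nucleotide match, and they are described separately after the 8 features.

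These features were among those with the most counts in the brain libraries. By mean count over the 15 libraries, mt-co1 ranked 1 and MT-ND1 ranked 2 of all features. Below them mt-co2 ranked 5, mt-cyb ranked 7, mt-atp6 ranked 8, MT-ND4 ranked 12, MT-ND5 ranked 15 and MT-ND3 ranked 19. Counts on mt-co1 alone made up 44.4% ± 2.38 (SD, n = 15) of the summed counts of the 8 features, against 4.16% ± 0.53 for MT-ND3.

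The ranks and parts above are of counts, which also depend on the length of a feature. Levels of different genes were compared only per length, on the FPKM scale. Mean FPKM over the 15 libraries was 16378 ± 3461 for MT-ND3 and 16029 ± 2087 for mt-co1 (SD, n = 15). These 2 features held ranks 1 and 2 in every library, in either order, and did not differ beyond their spread. The next pair was mt-co2 at 9640.5 ± 1798 FPKM and mt-atp6 at 9398 ± 1697 FPKM, which held ranks 3 and 4 in either order. Below them the order was the same in all 15 libraries, with mt-cyb at 4441 ± 744 FPKM, MT-ND1 at 2501 ± 386 FPKM, MT-ND4 at 1915 ± 317 FPKM and MT-ND5 at 1169 ± 196 FPKM. The subunits of complexes III, IV and V thus stood above 3 of the 4 complex I features, and mean FPKM of mt-co1 was 13.7 times that of MT-ND5.

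The place of MT-ND3 depends on the length used. Its deposited FPKM corresponds to a length of 143 bases, 0.372 of its deposited length of 383 bases, while for MT-ND5 both lengths were nearly equal. With counts divided by the deposited length, MT-ND3 ranked 4 of the 8, behind mt-co1, mt-co2 and mt-atp6, and the order of the other 7 was the same.

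**Figure D1:**
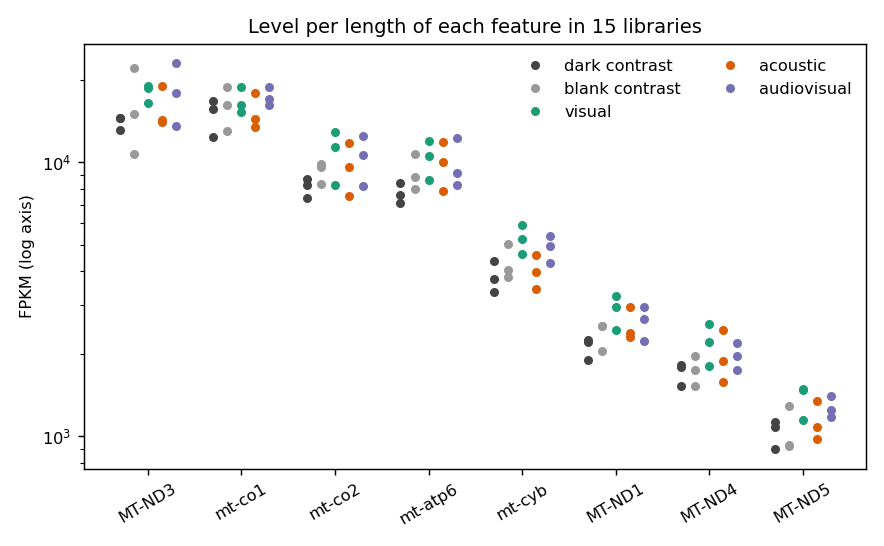
Each point is the FPKM of 1 feature in 1 of the 15 libraries, on a log axis, coloured by group. Levels fell from MT-ND3 (mean 16378) and mt-co1 (16029) to MT-ND5 (1169), and the spread over libraries within a feature was small beside that range.

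The share of all counts that fell on the 8 features lay between 4.33% and 6.85% of a library. Library totals ran from 12071194 to 16829356 counts, so the 95% Wilson interval of a single share was at most 0.0139 percentage points to either side, which covers counting error only. In the dark contrast group the share was 5.20% in library 1, 4.33% in library 2 and 5.45% in library 3. In the blank contrast group it was 5.75%, 4.55% and 6.03% in the same order. Both contrast groups held 2 libraries close together and a lower library 2.

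In the visual group the share was 5.97% in library 1, 5.36% in library 2 and 6.85% in library 3. In the acoustic group it was 6.39%, 4.74% and 5.19%. In the audiovisual group it was 5.92%, 5.32% and 6.73%. The lowest visual and audiovisual libraries lay below the highest library of the dark contrast group, and every pair of groups overlapped. This holds for shares of counts, and shares of FPKM sums are given in the last section.

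Group means were 4.99% ± 0.589 for dark contrast, 5.45% ± 0.784 for blank contrast, 6.06% ± 0.75 for visual, 5.44% ± 0.856 for acoustic and 5.99% ± 0.709 for audiovisual (SD, n = 3 in each). The 9 libraries with a stimulus averaged 5.83% ± 0.732 and the 6 contrast libraries 5.22% ± 0.668. The difference between these means was smaller than the SD within either set. Without mt-co1 the shares kept that order at the ends, from 2.68% ± 0.229 in dark contrast to 3.50% ± 0.549 in visual. The visual libraries (2.90% to 3.97%) then lay wholly above the dark contrast libraries (2.42% to 2.85%), and the other pairs of groups overlapped. In CPM, 5.30% of all features lay wholly higher in visual than in dark contrast, and this share was not tested.

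**Figure D2:**
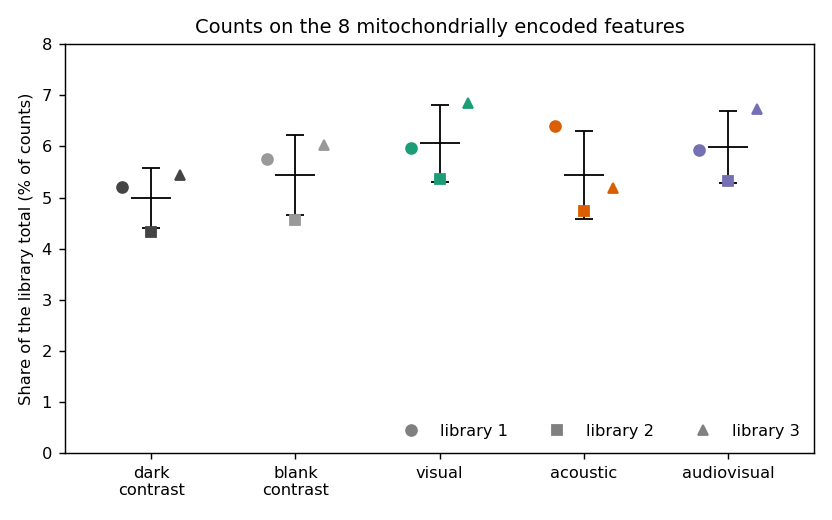
Share of each library's counts on the 8 features, in percent, by group. Symbols mark the library number, the horizontal bar is the mean and the whiskers are 1 SD (n = 3). Shares ran from 4.33% (dark contrast 2) to 6.85% (visual 3), and library 2 was the lowest of its group in 5 of 5 groups.

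The library numbered 2 had the lowest share in all 5 groups. By feature, it was the lowest of its group in 36 of 40 cases (8 features in 5 groups). Of all features tested, 0.462% had their lowest level in library 2 of every group, and 5 of the 8 mitochondrial features did (MT-ND1, mt-co2, mt-cyb, mt-atp6 and MT-ND4). The labels do not say that a number marks a shared batch or day. This pattern was noticed in the data and its cause was not tested.

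Single features were then compared between groups as CPM, counts relative to the library total after TMM scaling, which adjusts totals for differences in composition. No feature passed in any comparison. edgeR's quasi-likelihood test, with Benjamini-Hochberg adjustment over the 42619 features tested, called 0 of the 8 in each of the 10 pairs of groups, in the 3 stimulus groups against the 2 contrast groups and in the F test over all 5 groups. DESeq2 and limma on log2(FPKM + 1) also called 0 of the 8 in all 12. Over all features edgeR called 0% in each comparison, while DESeq2 did call some features, as given in the last section.

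mt-cyb, the complex III subunit, had the largest difference of the 8. Its levels were 4451, 3792 and 4962 CPM in dark contrast 1, 2 and 3, and 5763, 4511 and 4663 CPM in blank contrast 1, 2 and 3. They were 6003, 5328 and 6862 CPM in visual 1, 2 and 3, and 5308, 3963 and 4684 CPM in acoustic 1, 2 and 3. In audiovisual 1, 2 and 3 they were 5770.1, 4909.7 and 6203 CPM. All 3 visual libraries lay above all dark contrast libraries (as did 5.30% of all features) and above all acoustic libraries (4.99%), while the blank contrast and audiovisual groups overlapped with each of the others.

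For visual against dark contrast the log2 fold change of mt-cyb was 0.46 ± 0.141 (SE; 95% interval 0.16 to 0.76), with an unadjusted edgeR p of 0.00547 and an adjusted p of 0.896. For acoustic against visual it was -0.38 ± 0.141 (edgeR adjusted p = 0.985), and in the F test over all 5 groups mt-cyb was the only one of the 8 with an unadjusted p under 0.05 (0.0287, adjusted p = 0.999), where 4.74% of all features did.

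Among the complex I features, MT-ND1 had levels of 6171, 4992 and 5889 CPM in dark contrast 1, 2 and 3, and of 6729.9, 5663 and 6799.9 CPM in blank contrast 1, 2 and 3. It had 7984, 6583 and 8849 CPM in visual 1, 2 and 3, 8056, 6161 and 6562 CPM in acoustic 1, 2 and 3, and 7316, 5951 and 8019.6 CPM in audiovisual 1, 2 and 3. The visual libraries all lay above the dark contrast libraries, as did 5.30% of all features. The other stimulus groups overlapped with both contrast groups. Its log2 fold change for visual against dark contrast was 0.46 ± 0.14 (SE; edgeR adjusted p = 0.907).

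MT-ND5 had levels of 2529, 2002 and 2553 CPM in dark contrast 1, 2 and 3, and of 2917, 2183 and 2113 CPM in blank contrast 1, 2 and 3. It had 3376, 2612 and 3399 CPM in visual 1, 2 and 3, 3091, 2213 and 2521 CPM in acoustic 1, 2 and 3, and 2871, 2666 and 3219.7 CPM in audiovisual 1, 2 and 3. The visual and the audiovisual groups each lay above the dark contrast group without overlap, as 5.30% and 5.48% of all features did. Its log2 fold change was 0.41 ± 0.158 for visual against dark contrast (SE; edgeR adjusted p = 0.925) and 0.31 ± 0.158 for audiovisual against dark contrast (adjusted p = 0.935).

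MT-ND4 averaged 2864 ± 318 CPM in dark contrast, 2931 ± 308 CPM in blank contrast, 3691 ± 672 CPM in visual, 3325 ± 755 CPM in acoustic and 3307 ± 395 CPM in audiovisual (SD, n = 3). These groups overlapped.

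MT-ND3 was the most variable of the 8, with a coefficient of variation of 19.2% over libraries and a range from 1589 CPM in blank contrast 2 to 3178 CPM in blank contrast 3. The extremes fell in the same group, and the log2 fold change for visual against dark contrast was 0.23 ± 0.216 (SE; edgeR adjusted p = 0.965).

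In complex IV, mt-co1 had levels of 24767, 18623 and 25599.7 CPM in dark contrast 1, 2 and 3, and of 23332, 24880.0 and 29352 CPM in visual 1, 2 and 3. These groups overlapped, and the log2 fold change was 0.17 ± 0.147 (SE; 95% interval -0.15 to 0.49; edgeR adjusted p = 0.965). mt-co1 also had the narrowest range of the 8 over the 15 libraries, 1.58-fold from lowest to highest. Its group means in blank contrast, acoustic and audiovisual were 24838 ± 4154, 23676 ± 3608 and 26814 ± 2238 CPM (SD, n = 3).

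The second complex IV subunit, mt-co2, averaged 4994 ± 483 CPM in dark contrast, 5709 ± 418 CPM in blank contrast, 6574 ± 1493 CPM in visual, 5948 ± 1288 CPM in acoustic and 6376 ± 1325 CPM in audiovisual (SD, n = 3). Visual 2, at 4954 CPM, lay within the dark contrast range, so these groups overlapped.

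mt-atp6, of complex V, had levels of 4289, 3781 and 4495 CPM in dark contrast 1, 2 and 3 and of 5636, 4595 and 6468 CPM in visual 1, 2 and 3. The lowest visual library lay just above the highest dark contrast library, a separation that 5.30% of all features had. Its log2 fold change was 0.41 ± 0.173 for visual against dark contrast (SE; edgeR adjusted p = 0.934) and 0.37 ± 0.173 for acoustic against dark contrast (adjusted p = 0.973).

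**Figure D3:**
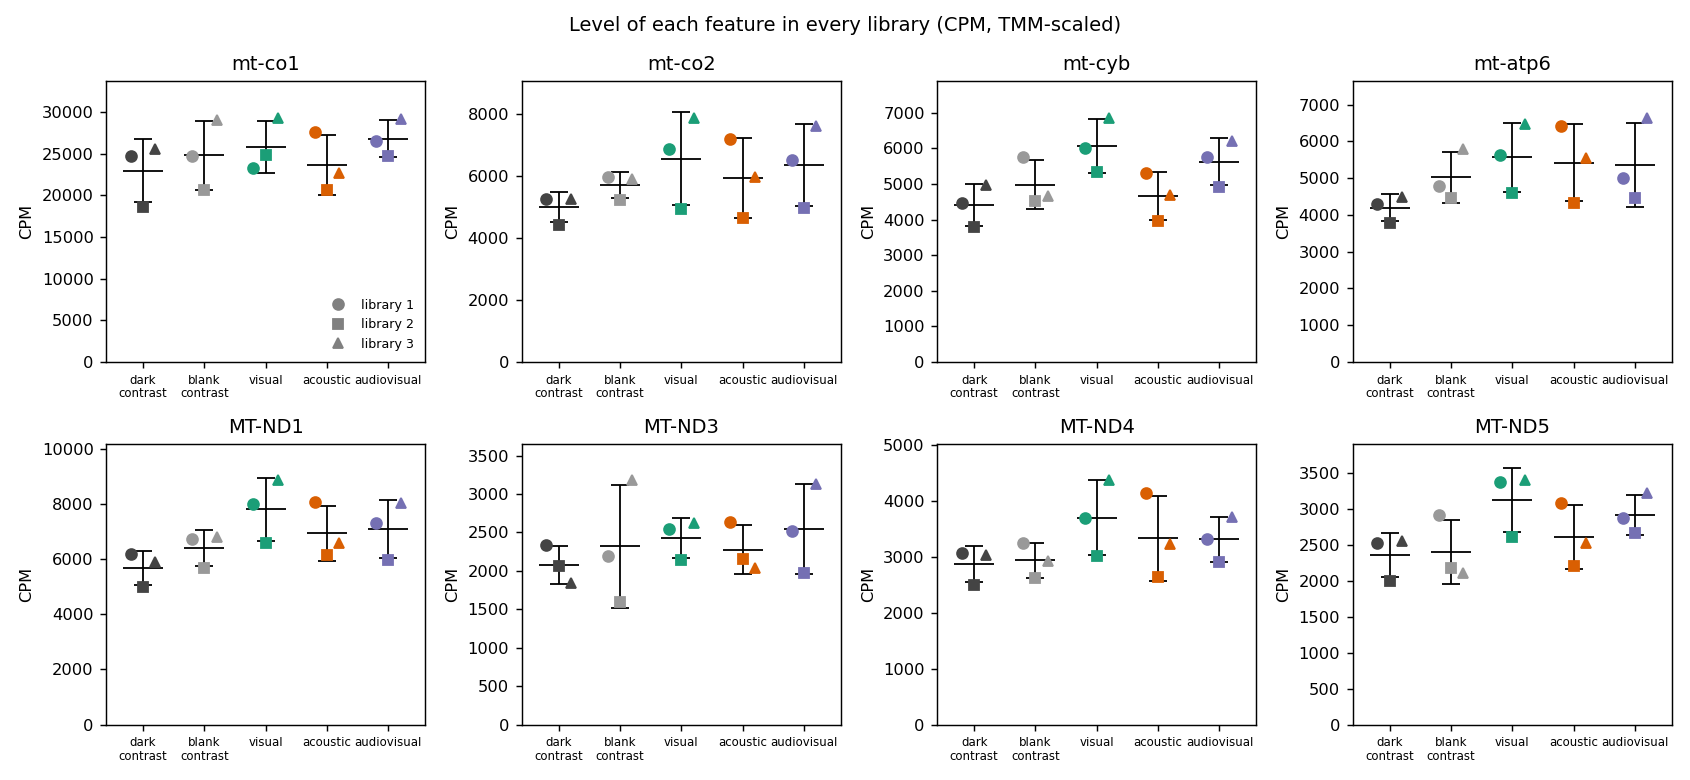
CPM of each of the 8 features by group, with each axis starting at 0. Symbols mark the library number, the horizontal bar is the mean and the whiskers are 1 SD (n = 3). The visual libraries lay above the dark contrast libraries for mt-cyb, MT-ND1, MT-ND5 and mt-atp6, as did 5.30% of all features. They overlapped with them for the other 4 features.

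Over the 8 features, visual against dark contrast had the highest median. All 8 log2 fold changes were above 0, from 0.17 to 0.46 with a median of 0.40, while 49.7% of all features were above 0 and their median was 0.00. By edgeR 5 of the 8 had an unadjusted p under 0.05, where 5.30% of all features did, and 2.64% did with a value above 0. DESeq2 gave 3, and limma gave 2 with a pseudocount of 1 or of 0.1. For DESeq2 and limma the shares of all features are not printed beside these counts. The counts thus show only how the number depends on the tool. In 4 of the 8 the visual libraries lay wholly above the dark contrast libraries, which 5.30% of all features did. Without visual 3 the median log2 fold change of the 8 was 0.27. The 8 features were read in the same libraries, so they are not independent observations.

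The other stimuli had smaller medians against dark contrast, although MT-ND3 (0.29) and mt-co1 (0.22) had higher log2 fold changes for audiovisual than for visual. For audiovisual all 8 log2 fold changes were above 0 (0.21 to 0.36, median 0.31; 49.5% of all features above 0), and edgeR gave 2 features, MT-ND1 and mt-cyb, an unadjusted p under 0.05 (5.23% of all features). For acoustic all 8 were above 0 (0.04 to 0.37, median 0.18; 50.6% of all features), and 1 feature, mt-atp6, had an unadjusted p under 0.05 (5.11% of all features). DESeq2 gave 1 and 0 features, and limma gave 0 for both, again without shares of all features for these tools. The median was 0.19 for audiovisual without audiovisual 3, and for acoustic it was 0.02 without acoustic 1 and 0.30 without acoustic 2. These comparisons share the same 3 dark contrast libraries, of which dark contrast 2 had the lowest level of 7 of the 8 features. With dark contrast 2 left out, the median was no lower than 0.266 for visual, 0.189 for audiovisual and 0.0216 for acoustic.

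Against blank contrast the medians were lower again. The median log2 fold change of the 8 was 0.24 for visual and 0.15 for audiovisual, with all 8 above 0 in each (49.5% of all features in each). For acoustic it was 0.09, with 5 of 8 above 0 (50.5% of all features). For visual the median was 0.12 without visual 3 and 0.37 without visual 2. For audiovisual it was 0.05 without audiovisual 3, 0.08 without blank contrast 2 and 0.26 without audiovisual 2. For acoustic it was -0.06 without acoustic 1, 0.02 without blank contrast 2 and 0.20 without acoustic 2. Only MT-ND5 in the visual comparison had an unadjusted p under 0.05 in edgeR (0.0303, adjusted p = 0.9997, log2 fold change 0.38 ± 0.158), where 4.66% of all features did. None of the 8 did for acoustic or audiovisual (4.42% and 4.54% of all features). Dark contrast against blank contrast gave log2 fold changes below 0 for all 8 (-0.26 to -0.03, median -0.17), where 50% of all features were above 0, and no p under 0.05 among the 8 (5.68% of all features). That median was -0.08 without dark contrast 2.

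Between stimuli, acoustic against visual gave log2 fold changes below 0 for all 8 (-0.38 to -0.04, median -0.15), where 50.8% of all features were above 0. That median was -0.03 without visual 3, -0.05 without acoustic 2, -0.28 without visual 2 and -0.30 without acoustic 1. mt-cyb was the only feature of the 8 there with an unadjusted p under 0.05 in edgeR (5.01% of all features). Audiovisual against visual had a median of -0.08, with 2 of 8 above 0 (50% of all features), and audiovisual against acoustic had a median of 0.13, with 6 of 8 above 0 (49.1% of all features). Both medians changed sign with 1 library left out. For audiovisual against visual the median lay between -0.20 (without visual 2) and 0.03 (without visual 3), and it was 0.02 without audiovisual 2, -0.04 without visual 1 and -0.19 without audiovisual 3. For audiovisual against acoustic it lay between -0.03 (without audiovisual 3) and 0.27 (without acoustic 1), and it was 0.01 without acoustic 2 and 0.23 without audiovisual 2. Both comparisons had no p under 0.05 among the 8, against 4.57% and 4.90% of all features.

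For the 3 stimulus groups against the 2 contrast groups, all 8 log2 fold changes were above 0 (0.09 to 0.27, median 0.24), where 49.8% of all features were. By edgeR 5 of the 8 had an unadjusted p under 0.05 (MT-ND1, MT-ND5, mt-cyb, MT-ND4 and mt-atp6), where 4.70% of all features did. DESeq2 gave 2, limma on log2(FPKM + 1) gave 2 and limma on log2(FPKM + 0.1) gave 0, again without shares of all features for these tools. MT-ND1 had a log2 fold change of 0.27 ± 0.0909 (SE; 95% interval 0.07 to 0.46), and its edgeR adjusted p was 0.9998. The upper ends of the 95% intervals of the 8 reached at most 0.50 on the log2 scale.

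**Figure D4:**
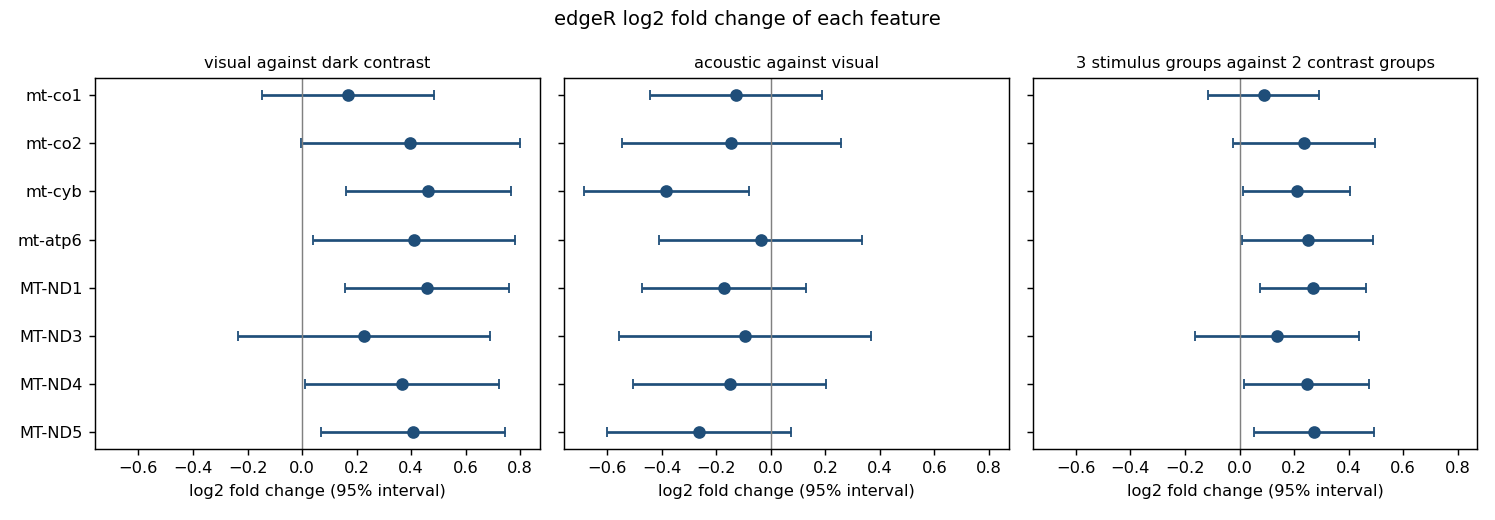
edgeR log2 fold change of each of the 8 features with its 95% interval, for visual against dark contrast, acoustic against visual, and the 3 stimulus groups against the 2 contrast groups. All points lie above 0 in the left and right panels and below 0 in the middle panel, and no feature passed after adjustment over all features.

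Composition is given as the part each feature took of the summed counts of the 8. mt-co1 took 46.2% ± 1.87 of that sum in dark contrast, 45.4% ± 2.32 in blank contrast, 42.4% ± 3.38 in visual, 43.2% ± 0.88 in acoustic and 44.8% ± 2.01 in audiovisual (SD, n = 3). Its groups all overlapped, as did those of mt-co2 and MT-ND3. mt-cyb took 9.83% to 10.1% in visual, above its range in dark contrast (8.42% to 9.25%), acoustic (8.23% to 8.80%) and audiovisual (9.16% to 9.64%), and its audiovisual range also lay above the acoustic one. MT-ND1 took 12.2% to 13.4% in visual and 12.3% to 13.2% in acoustic, in both above dark contrast (11.0% to 11.8%) and blank contrast (11.3% to 12.1%), and its acoustic range also lay above audiovisual (11.3% to 12.2%). MT-ND5 took a larger part in every visual library (4.83% to 5.68%) than in any dark contrast or acoustic library (at most 4.79%). MT-ND4 took a smaller part in every audiovisual library (5.46% to 5.53%) than in any dark contrast, visual or acoustic library (at least 5.58%), and mt-atp6 a larger part in acoustic (9.22% to 10.4%) than in dark contrast (8.11% to 8.96%). The other pairs of groups overlapped. These parts were not tested, and as parts of 1 sum they do not vary independently. They exist only for the 8, so no share over all features can stand beside these separations. In CPM, 5.30% of all features lay wholly higher in visual than in dark contrast, and 4.99% wholly lower in acoustic than in visual. With 3 libraries a group such separations are thus not rare, and no difference in composition is read from them. MT-ND3 had the highest relative spread of its share over the 15 libraries, with a coefficient of variation of 12.8%, against 5.36% for mt-co1.

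In edgeR's fit the biological coefficient of variation of the 8 features lay between 17.7% (mt-cyb) and 22.4% (MT-ND3), below the common value of 32.9% over all features. The common value covers features of every level tested, and none is given for features as abundant as these 8.

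Nuclear genes for subunits of the same 4 complexes were described by counts from a list. 89 features carried 1 of 67 symbols of that list, and edgeR called 0 of the 89 in any comparison. For visual against dark contrast 31 of the 89 had a log2 fold change above 0 (49.7% of all features), with a median of -0.07. 5 of the 89 had an unadjusted p under 0.05 in edgeR, where 5.30% of all features did. The smallest p was that of UQCR11, a small subunit of complex III, with a log2 fold change of -0.53 ± 0.127 (SE; edgeR adjusted p = 0.860). By complex, the medians for the same comparison were -0.07 for 51 complex I features, -0.11 for 7 complex III features, -0.06 for 12 complex IV features and -0.11 for 19 complex V features.

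Beside the mitochondrial transcripts, the 89 nuclear features took between 1.03% of all counts (acoustic 3) and 1.22% (dark contrast 1) in single libraries, with group means between 1.07% and 1.12%. Both shares are of unscaled library totals. The ratio of mitochondrial to nuclear counts was 4.47 ± 0.633 in dark contrast, 5.01 ± 0.862 in blank contrast, 5.69 ± 0.896 in visual, 5.02 ± 0.613 in acoustic and 5.60 ± 0.719 in audiovisual (SD, n = 3). It ran from 3.97 in dark contrast 2 to 6.65 in visual 3, and the groups overlapped.

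Genes that act on mitochondrial DNA and RNA were described the same way. edgeR called none of the 13 features for replication and transcription of the mitochondrial genome, none of the 27 for mitochondrial RNA processing and stability, and none of the 18 for regulators of mitochondrial biogenesis. For visual against dark contrast 0, 0 and 2 of them had an unadjusted p under 0.05, where 5.30% of all features did. The smallest p in each list belonged to polg2, an accessory subunit of the mitochondrial DNA polymerase (log2 fold change 1.12 ± 0.591), to ELAC2, which cuts the 3′ ends of tRNA precursors (0.62 ± 0.324), and to PRKAA2, a catalytic subunit of the AMP-activated kinase (0.73 ± 0.230). Of 19 features of immediate early genes, which neurons switch on when active, edgeR called 0, and for visual against dark contrast 2 had an unadjusted p under 0.05 (5.30% of all features). The smallest was that of CYR61 (1.10 ± 0.291, edgeR adjusted p = 0.896). Summed over all 20 features of that list, relative to unscaled library totals, dark contrast 2 had 225 CPM. Dark contrast 1 and 3 had 502 and 603 CPM, and the other groups lay between 438 and 724 CPM.

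The label whole brain was checked against markers, whose CPM are relative to unscaled library totals. All 4 neuron markers were found, with SNAP25 at 891 to 1224 CPM on its most abundant feature and SYT1 at 549 to 703 CPM on its own, and the myelin gene MBP lay at 4845 to 8741 CPM. GFAP was not found by symbol and was not analysed here. Summed neuron markers averaged 3260.1 ± 171 CPM in dark contrast and 3081 ± 52.1 CPM in visual.

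Markers of neighbouring tissue varied more. Of 4 pituitary markers 2 were found, POMC and CGA, and their sum ran from 397 to 5199 CPM in dark contrast, from 22.8 to 68.4 CPM in blank contrast, from 19.2 to 113 CPM in visual, from 164 to 1969.9 CPM in acoustic and from 56.2 to 9542 CPM in audiovisual. The 5199 CPM was in dark contrast 2, against 397 and 462 CPM in dark contrast 1 and 3, and the 9542 CPM was in audiovisual 3. Neither marker was at 0 in any library. Of 5 blood markers 2 were found, HBB and ALAS2, with sums from 354 to 795 CPM in blank contrast and from 394 to 1501 CPM in acoustic. Of 4 skeletal muscle markers 1 was found, CKM, which reached 32.2 CPM in visual 2, with a median of 2.34 CPM over all libraries. Of 3 choroid plexus markers 1 was found, OTX2, whose sum over 3 features stayed between 36.8 and 73.2 CPM. The part of these tissues in the mitochondrial values was not tested.

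4 features outside the rule had a mitochondrial entry as their closest nucleotide match. The first carried the symbol Srr of serine racemase in its Swiss-Prot match (Cluster-46846.156124, 1921 bases). A second protein match and the orthology name given for it also named serine racemase. Its closest nucleotide entry, however, was the mitochondrial genome of another Amolops species. Its protein domain was cytochrome c oxidase subunit III, another core subunit of complex IV. Whether the feature joins sequence of both genes was not tested. It ranked 4 by mean count. Its share of a library lay between 0.471% in dark contrast 2 and 0.836% in visual 3, the same lowest and highest libraries as the sum of the 8 features.

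Over all libraries the log2 level of this Srr feature followed the log2 share of the 8 features with a Pearson r of 0.893 (n = 15), the highest among 13253 candidate features with a symbol and a mean of at least 5 CPM. The next were TAPBP (0.844), ALDH7A1 (0.780), ZNF134 (0.765) and STX10 (0.758). These are descriptions over libraries that share groups and scaling. For visual against dark contrast the Srr feature had a log2 fold change of 0.41 ± 0.157 (SE; edgeR adjusted p = 0.925).

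The other 3 features matched mitochondrial ribosomal RNA, and in 2 libraries they stood far above their level in the other 13. In 13 libraries they took between 0.192% and 0.379% of all counts, but in blank contrast 2 they took 1.99% and in acoustic 3 they took 2.24%. The 12S rRNA feature (Cluster-46846.155630, 945 bases) lay between 76.3 and 229 CPM in those 13 libraries, at 7188 CPM in blank contrast 2 and at 9307 CPM in acoustic 3. The more abundant 16S rRNA feature (Cluster-46846.155354, 1596 bases) lay between 1771 and 3569 CPM in the 13, at 12795 CPM in blank contrast 2 and at 13041 CPM in acoustic 3. The second 16S rRNA feature (Cluster-46846.155615, 2345 bases) lay between 7.91 and 56.2 CPM in the 13, at 590.0 and 616 CPM in the same 2 libraries.

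The share of the 8 protein-coding features in these 2 libraries was 4.55% and 5.19%, within the range of the other libraries. The biological coefficient of variation of the rRNA features was 55.4% to 110.3%. The labels do not say how ribosomal RNA was removed or messenger RNA selected, and the cause was not tested.

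**Figure D5:**
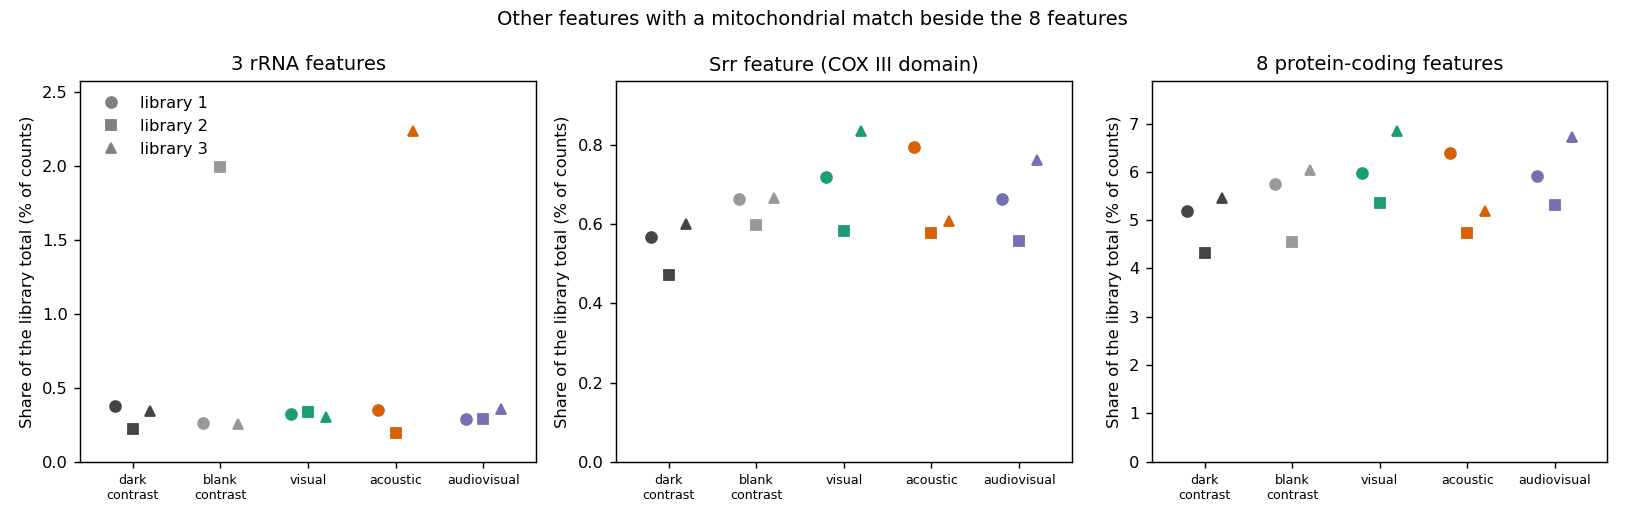
Share of each library's counts, in percent, on the 3 rRNA features, on the Srr feature with a cytochrome c oxidase subunit III domain, and on the 8 protein-coding features. Symbols mark the library number and each axis starts at 0. The rRNA features stand at 1.99% in blank contrast 2 and 2.24% in acoustic 3 and at most 0.379% in the others.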

How the data were processed

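Whole brain RNA was extracted with Trizol and made into libraries with a NEBNext Ultra kit, per the labels' protocols. The deposited table holds estimated counts per assembled feature, made by the authors and not normalized, FPKM computed by the authors, and feature lengths, per the file headers. Software for assembly, alignment and counting is not given in the sources used. The table holds totals of 12071194 to 16829356 counts per library. Counts were rounded. 100% of the counts on the 8 features were whole to within 1e-06, and 57.4% of all counts.

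edgeR 4.0.16 (R 4.3.3) with TMM scaling was run on the 42619 features whose FPKM averaged 1 or more, with 1 spread estimate for the 5 groups. The quasi-likelihood test was adjusted by Benjamini-Hochberg within each comparison, threshold 0.05. SE was derived from the fold change and its F statistic. Alternatives used DESeq2 1.42.0 and limma 3.58.1 on log2(FPKM + a pseudocount of 1 or 0.1), other scaling and filters, a block, counts summed per symbol and left-out libraries. On simulated data for visual against dark contrast, the test called 38% of 100 features with a log2 fold change of 1 in either direction. It called 100% of 100 features with a change of 2, and made 4 false calls among the other features. Every simulated feature had the same spread, a squared biological coefficient of variation of 0.05, which is below the common value fitted to the data. These rates can thus be higher than those for the real features. Smaller changes were not simulated.

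The members and lists were chosen with earlier results of these data known, so shares over the members carry no p. Every member is named; from each list the feature with the smallest p for visual against dark contrast; for likeness the 5 with the highest r, on log2(CPM + 0.1). No sequences were used.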

Additional observations from a re-analysis of the deposited data

How the results depend on the processing

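edgeR, DESeq2 and limma called 0 of the 8 features under every alternative, with a lowest adjusted p of 0.603 (DESeq2, visual against dark contrast). The median log2 fold change of the 8 stayed above 0 in every alternative run for visual against dark contrast (0.27 to 0.53) and for the 3 stimulus groups against the 2 contrast groups (0.18 to 0.29). It changed sign with 1 library left out in 3 comparisons: to -0.06 for acoustic against blank contrast without acoustic 1, to -0.03 for audiovisual against acoustic without audiovisual 3, and for audiovisual against visual to 0.02 without audiovisual 2 and 0.03 without visual 3. With the replicate number as a block (replicate block), the median was 0.39 for visual against dark contrast and 0.23 for the 3 stimulus groups against the 2 contrast groups, with 0 calls. Over all features, deviations of 30 same-numbered pairs correlated at -0.035 to 0.043, and 7 of 15 libraries correlated best with their own number. These correlations were not computed for the 8 features alone, so they say nothing about the low library 2 among them. Taken from FPKM sums, the share was 5.67% in dark contrast, 6.47% in blank contrast, 7.15% in visual, 6.39% in acoustic and 7.16% in audiovisual. On this scale the visual (6.18% to 8.17%) and audiovisual (6.12% to 8.30%) libraries lay wholly above the dark contrast libraries (5.33% to 6.03%). The other pairs of groups overlapped. In CPM, 5.30% and 5.48% of all features lay wholly higher in visual and in audiovisual than in dark contrast. The FPKM shares were not tested. With the 4 other mitochondrial matches added, an alternative chosen after seeing the data, the share of counts was 5.85%, 6.93%, 7.10%, 7.03% and 6.96%. This alternative includes the rRNA features, which took 1.99% in blank contrast 2 and 2.24% in acoustic 3. In these libraries the share went from 4.55% to 7.15% and from 5.19% to 8.04%. Without the libraries numbered 2 the share of the 8 features was 5.32%, 5.89%, 6.41%, 5.79% and 6.33%. Over all features edgeR called 0 in each comparison, DESeq2 17 to 206, limma with a pseudocount of 0.1 at most 1, and edgeR with libraries left out at most 6. For the comparisons over all 5 groups, a fit of only the groups compared is the same fit and gave no separate value. With 3 libraries a group, the standard error of a log2 fold change between 2 groups was 0.14 to 0.216 for the 8 features.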
